A study of Homo sapiens with 6 samples.

Results

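The genes for translation initiation factors (symbols beginning with EIF) and elongation factors (symbols beginning with EEF) were described in 5637 cells, an established human bladder carcinoma line, after knockdown of RAD51C. They were taken by symbol alone: every deposited gene symbol with EIF or EEF before a digit, without the EIF2AK kinases and without symbols that hold a hyphen. That gave 62 of 23024 listed genes. Of these, 60 averaged at least 1 FPKM (reads scaled by the length of the gene and by the total of the library) over the 6 libraries and were tested together with the rest of the 11152 genes that passed this filter. EEF1A2 and EIF4EBP3 stayed below it. No measured value entered the choice by symbol, but the group was proposed with results of the same comparison known, so counts over its members are given as a description.

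Total RNA of 6 libraries was sequenced. The 3 sh-RAD51C libraries came from 5637 cells carrying a short hairpin RNA against RAD51C, labelled as RAD51C knockdown. The 3 NC libraries came from 5637 cells labelled WT. All were transfected cells per the labels' protocol, but the hairpin sequence, the meaning of NC, the time after transfection and whether the libraries of a group were separate cultures were not stated, so the p-values below rest on differences among libraries that may be technical repeats. RAD51C, a homologous recombination gene and the target of the hairpin, was measured at 3.51, 3.09 and 2.95 FPKM in sh-RAD51C 1, 2 and 3, against 14.7, 13.2 and 13.6 FPKM in NC 1, 2 and 3 (log2 fold change -1.83, limma adjusted p = 7.16e-09).

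Initiation factors bring the small ribosomal subunit, the initiator tRNA and the messenger RNA together. EIF2 carries the initiator tRNA with GTP and is recharged by EIF2B, EIF3 is the scaffold on the small subunit, and the EIF4 factors bind the cap and unwind the leader until EIF5B joins the large subunit. Elongation factors then take over: EEF1A delivers aminoacyl-tRNA and is recharged by the other EEF1 subunits, EEF2 moves the ribosome along, and EIF5A, despite its name, relieves stalls during elongation. Many of the messages for these factors and for ribosomal proteins begin with a C and a run of pyrimidines, which couples their translation to the kinase MTOR.

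Inferred depth ran from 37104318 to 38079825 reads in the sh-RAD51C libraries and from 36068282 to 37560184 reads in the NC libraries. All 8 epithelial and urothelial markers on a list of known markers averaged at least 1 FPKM. They summed to 2969 to 3086 FPKM in sh-RAD51C and 3221 to 3297 FPKM in NC, and 7 of them were called, 4 higher and 3 lower, from -1.19 for KRT5 to 0.75 for KRT7 on the log2 scale. None of the 9 endothelial markers averaged 1 FPKM, and PTPRC, which defines white blood cells, averaged 0.00134 FPKM in sh-RAD51C against 0.00550 FPKM in NC. The summed level of the 9 listed fibroblast markers was 56.3 to 57.9 FPKM in sh-RAD51C and 70.5 to 70.9 FPKM in NC, nearly all of it from COL1A1, THY1 and FBLN1, with COL1A2 and DCN near 0. The 6 blood cell markers summed to 89.9 to 95.0 FPKM in sh-RAD51C and 96.0 to 104 FPKM in NC, mostly LAPTM5. Whether these genes have a part in the results below was not tested. sh-RAD51C 1 stood apart by gene length: its median deviation from its group's mean on the log2 scale was 0.07 for genes under 1500 bases and -0.05 for genes of 5000 bases or more. In bulk RNA, fewer cells of a type and less RNA per cell cannot be told apart.

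Most called translation factor genes rose in sh-RAD51C. By limma on log2(FPKM + 1), with p-values adjusted over all 11152 genes and a call at an adjusted p under 0.05, 30 of the 60 tested rose, 4 fell and 26 were not called, beside 49.4% of all genes called in either direction (23.2% higher and 26.2% lower). The median log2 fold change of the 60 was 0.11, beside -0.01 over all genes, and the range ran from -0.50 for EIF4E3 to 0.67 for EEF1E1. The 4 genes that fell were EIF4E3, EIF4EBP2, EIF4B and EIF3L. In 42 of the 60, the sh-RAD51C and NC libraries did not overlap, beside 58.4% of all genes, and all 34 called genes were among them. EEF1A1, EEF1G and EEF2, which held the highest levels, were not called. The summed level of all 62 was 7080 ± 135 FPKM in sh-RAD51C and 6893 ± 80.9 FPKM in NC (SD, n = 3 each), and the libraries overlapped (6946 to 7216 FPKM in sh-RAD51C, 6829 to 6984 FPKM in NC).

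Without NC 1 or without NC 3, 24 members were called higher and 4 lower. Without sh-RAD51C 1, 30 were called higher and 8 lower, with EEF1G (adjusted p = 0.0216), EIF3F (0.0231), EEF2 (0.0410) and EIF3K (0.0427) joining the 4 that fell. Of all 11152 genes, 2163 were called higher and 2545 lower without NC 1, and 2408 and 2486 without NC 3. Without sh-RAD51C 1 these counts were 2609 and 2855, beside 2589 and 2922 with all libraries. Reads of overlapping genes cannot be separated here, since strand use is not stated. Exons of 38 members overlap those of another annotated gene. Of the 23 tested members without such an overlap, 8 rose, 1 fell and 14 were not called, with a median of 0.08. Of these 23, 39.1% were called (34.8% higher and 4.3% lower), beside 49.4% of all genes (23.2% higher and 26.2% lower).

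**Figure D1:**
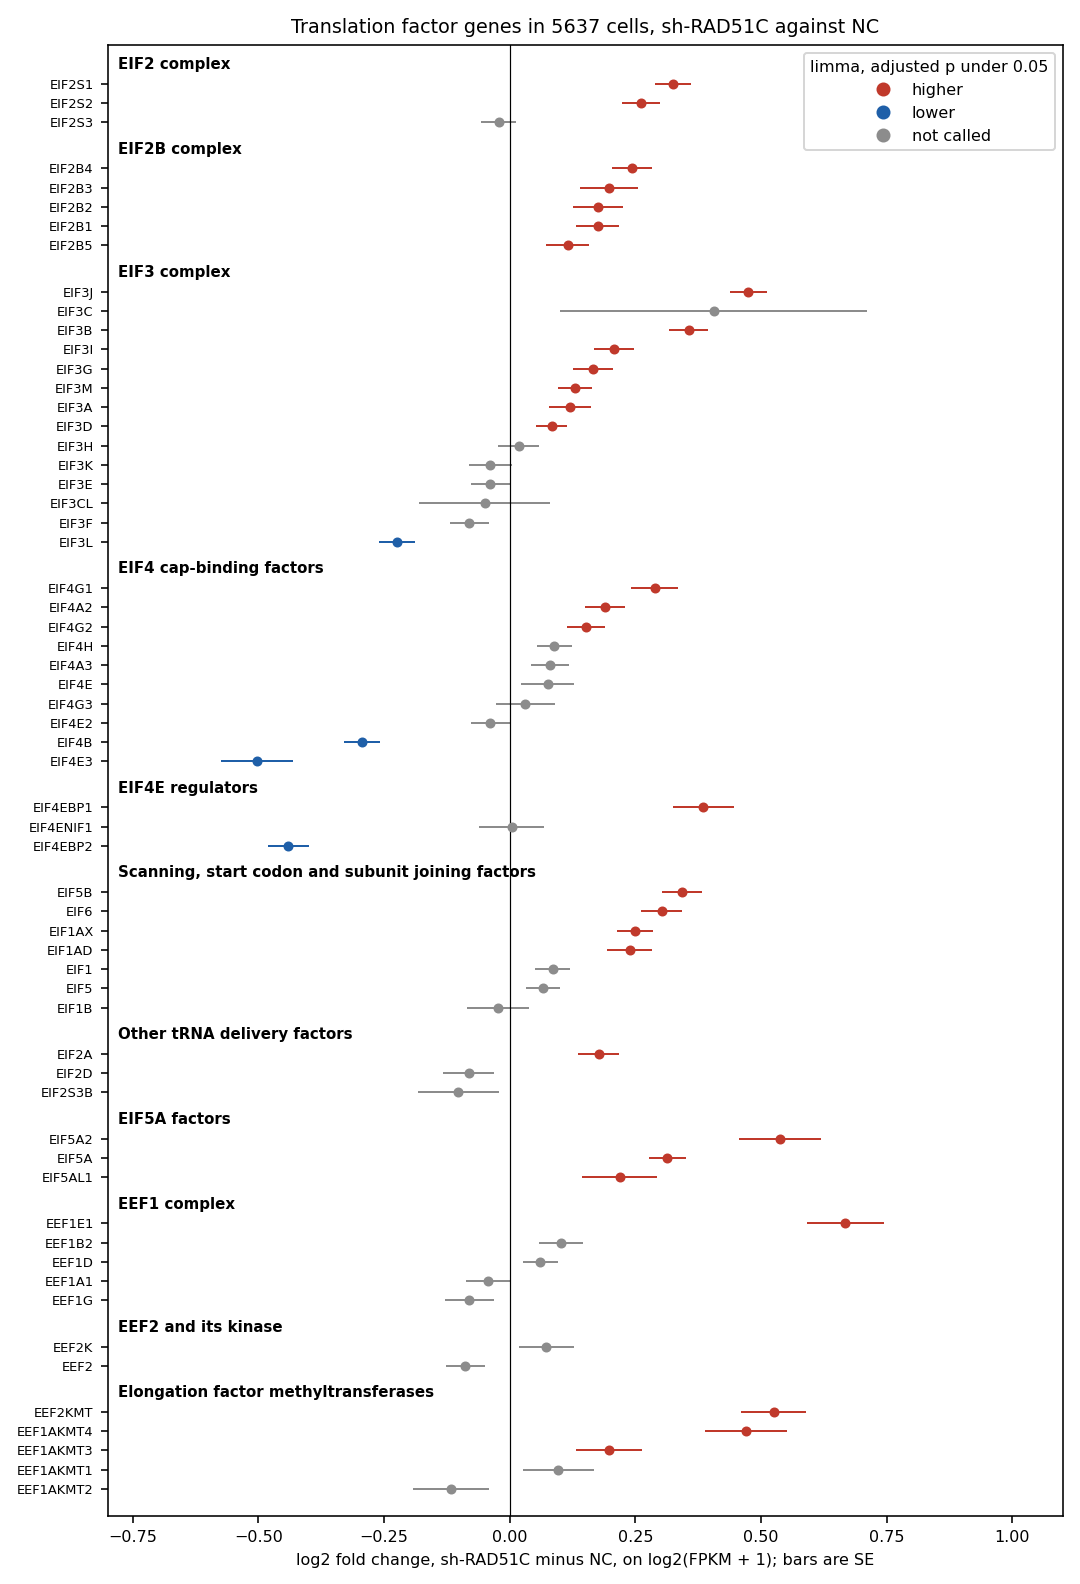
Log2 fold change of the 60 tested translation factor genes, sh-RAD51C minus NC, on log2(FPKM + 1), grouped by complex or role. Points are limma estimates from 3 libraries each, bars are SE, and colours mark genes called higher, called lower or not called at an adjusted p under 0.05; 30 called genes lie above 0 and 4 below it.

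Among the factors that deliver the initiator tRNA, 2 of the 3 EIF2 subunits rose (66.7%, beside 23.2% of all genes). EIF2S1, the alpha subunit that stress kinases phosphorylate, was at 51.8, 52.6 and 53.9 FPKM in sh-RAD51C 1, 2 and 3, against 40.8, 41.9 and 43.1 FPKM in NC 1, 2 and 3. EIF2S2, the beta subunit, was at 91.2, 86.7 and 87.1 FPKM in the sh-RAD51C libraries and 72.5, 71.9 and 76.2 FPKM in the NC libraries. In both genes every sh-RAD51C library was above every NC library (EIF2S1 log2 fold change 0.32 ± 0.037 (SE), limma adjusted p = 3.01e-05; EIF2S2 log2 fold change 0.26 ± 0.038 (SE), limma adjusted p = 0.000176). EIF2S3, the gamma subunit that binds GTP and the tRNA, had the highest level of the 3, with 88.8, 92.5 and 93.6 FPKM in the sh-RAD51C libraries and 94.5, 93.2 and 91.4 FPKM in the NC libraries, and its groups overlapped (log2 fold change -0.02, limma adjusted p = 0.631). Exons of EIF2S1 (chr14:67359997-67386516) overlap ATP6V1D on the other strand. EIF2S3B, a near-identical copy of EIF2S3, was at 2.48 FPKM in sh-RAD51C against 2.74 FPKM in NC and was not called (adjusted p = 0.317), and the split of reads between the copies is uncertain.

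All 5 subunits of EIF2B, the exchange factor that reloads EIF2 with GTP, were called higher, by 0.12 to 0.24 on the log2 scale. Of all genes, 23.2% were called higher. EIF2B4, the delta subunit, was at 34.5, 31.8 and 33.2 FPKM in sh-RAD51C 1, 2 and 3, against 27.8, 27.7 and 28.0 FPKM in NC 1, 2 and 3 (log2 fold change 0.24 ± 0.040 (SE), limma adjusted p = 0.000432). EIF2B1, the alpha subunit, was at 29.8, 28.8 and 27.1 FPKM in the sh-RAD51C libraries and 25.4, 25.5 and 24.6 FPKM in the NC libraries (log2 fold change 0.18, limma adjusted p = 0.00555). These groups did not overlap, and both calls held without any single library. EIF2B2, the beta subunit, had 9.33, 8.80 and 8.77 FPKM in the sh-RAD51C libraries and 7.59, 8.01 and 7.87 FPKM in the NC libraries (log2 fold change 0.18, limma adjusted p = 0.0122). EIF2B3, the gamma subunit, had 8.74, 8.60 and 8.51 FPKM in the sh-RAD51C libraries and 7.05, 8.10 and 7.07 FPKM in the NC libraries (log2 fold change 0.20, limma adjusted p = 0.0154), with NC 2 close to the lowest sh-RAD51C library. Both calls were lost without NC 1 (adjusted p = 0.0518 for EIF2B2 and 0.0645 for EIF2B3), and that of EIF2B3 also without NC 3 (0.0588). EIF2B5, the catalytic epsilon subunit, averaged 18.6 ± 0.523 FPKM in sh-RAD51C and 17.1 ± 0.568 FPKM in NC (log2 fold change 0.12, limma adjusted p = 0.0437), and its call was lost without NC 1, NC 2, NC 3, sh-RAD51C 1 or sh-RAD51C 3, with adjusted p from 0.0543 to 0.171. Exons of all 5 genes overlap another annotated gene on the other strand.

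Other factors can bring a tRNA to the start codon. EIF2A, which can bind the initiator tRNA without GTP, rose, with 25.3, 24.6 and 24.7 FPKM in the sh-RAD51C libraries and 20.8, 22.3 and 22.5 FPKM in the NC libraries (log2 fold change 0.18 ± 0.042 (SE), limma adjusted p = 0.00465) and no overlap between the groups. EIF2D, which binds tRNA on its own and also acts in recycling, averaged 8.84 FPKM in sh-RAD51C against 9.42 FPKM in NC and was not called (adjusted p = 0.204). A list of 9 genes around EIF2 held its 4 kinases, the phosphatase subunits PPP1R15A and PPP1R15B, the kinase regulators GCN1 and IMPACT, and ATF4, a transcription factor translated when EIF2 is phosphorylated. Of these, 2 (22.2%) were called, both higher, beside 49.4% of all genes, with a median of 0.07. PPP1R15A, the stress-induced subunit that directs the phosphatase to EIF2, averaged 42.4 ± 0.821 FPKM in sh-RAD51C and 30.1 ± 0.360 FPKM in NC (log2 fold change 0.48 ± 0.035 (SE), limma adjusted p = 1.19e-06), and its groups did not overlap. EIF2AK4, the kinase that senses uncharged tRNA, was at 18.3 FPKM in sh-RAD51C against 16.2 FPKM in NC (log2 fold change 0.17, limma adjusted p = 0.0255) with overlapping groups, and its call was lost without NC 1, NC 2, sh-RAD51C 2 or sh-RAD51C 3 (adjusted p from 0.0752 to 0.0969). EIF2AK1, the haem-regulated kinase, was at 51.7 FPKM in sh-RAD51C against 55.1 FPKM in NC (log2 fold change -0.09, limma adjusted p = 0.0509) with groups that did not overlap, and was called lower in 5 of 16 refits: without sh-RAD51C 1 (0.0350), at a mean of at least 5 FPKM (0.0486), with quantile normalization (0.00404), with upper quartile scaling (0.0314) and on the inferred reads (0.0488). GCN1, which relays the stall signal to EIF2AK4, was at 32.9 FPKM in sh-RAD51C against 30.3 FPKM in NC (adjusted p = 0.169), and was called higher without sh-RAD51C 1 (log2 fold change 0.19, adjusted p = 0.00283).

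EIF3 is the largest initiation factor, and its 14 tested genes divided: 7 rose, 1 fell and 6 were not called, with a median of 0.10. That is 57.1% called, beside 49.4% of all genes, and 50.0% called higher, beside 23.2%. EIF3J, a loosely bound subunit that sits near the decoding site, changed most. It was at 59.4, 60.5 and 58.6 FPKM in sh-RAD51C 1, 2 and 3, against 41.6, 41.6 and 44.4 FPKM in NC 1, 2 and 3. The lowest sh-RAD51C library was well above the highest NC library, and the means of 59.5 ± 0.951 FPKM in sh-RAD51C and 42.5 ± 1.59 FPKM in NC (SD, n = 3 each) are a 1.4-fold difference (log2 fold change 0.47 ± 0.038, SE; limma adjusted p = 2.13e-06). EIF3B, a scaffold subunit, was at 123, 130.0 and 127 FPKM in sh-RAD51C 1, 2 and 3, against 97.0, 96.6 and 103 FPKM in NC 1, 2 and 3 (log2 fold change 0.36 ± 0.038 (SE), limma adjusted p = 2.03e-05). EIF3I, its beta-propeller partner, was at 76.2, 71.7 and 69.7 FPKM in the sh-RAD51C libraries and 63.5, 61.9 and 62.5 FPKM in the NC libraries (log2 fold change 0.21, limma adjusted p = 0.0012). EIF3G, which completes the same module, averaged 120.4 ± 4.64 FPKM in sh-RAD51C and 107 ± 3.35 FPKM in NC (log2 fold change 0.17, limma adjusted p = 0.00487). These groups did not overlap, and the 4 calls held in every refit, single libraries left out included. EIF3B (chr7:2354086-2380745) shares no exon with another annotated gene, whereas EIF3J (chr15:44537057-44563029) overlaps SPG11, EIF3I overlaps TMEM234 and EIF3G overlaps P2RY11 on the other strand.

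The other subunits form the core on the small ribosomal subunit. EIF3L, a core subunit, was the 1 that fell, with 75.0, 72.5 and 72.9 FPKM in sh-RAD51C 1, 2 and 3, against 87.5, 87.8 and 82.7 FPKM in NC 1, 2 and 3 (log2 fold change -0.22 ± 0.037 (SE), limma adjusted p = 0.000432), and its highest sh-RAD51C library was below its lowest NC library. EIF3K, which pairs with EIF3L and had the highest level of all EIF3 genes, was at 193, 178 and 173 FPKM in the sh-RAD51C libraries and 187, 189 and 183 FPKM in the NC libraries. Its sh-RAD51C libraries straddled the NC range (adjusted p = 0.483). EIF3M, a core subunit, rose, averaging 43.7 ± 0.631 FPKM in sh-RAD51C and 39.9 ± 0.535 FPKM in NC (log2 fold change 0.13, limma adjusted p = 0.00868). EIF3A, the largest subunit, averaged 56.7 ± 3.10 FPKM in sh-RAD51C and 52.1 ± 0.0714 FPKM in NC (log2 fold change 0.12, limma adjusted p = 0.0346), and EIF3D, which can itself bind caps, averaged 112 ± 0.943 FPKM in sh-RAD51C and 105 ± 0.951 FPKM in NC (log2 fold change 0.08, limma adjusted p = 0.0476). The calls of EIF3A and EIF3D were lost without any library other than sh-RAD51C 1, with adjusted p from 0.0763 to 0.128 and from 0.0585 to 0.155. The core subunits EIF3E, EIF3F and EIF3H were not called. EIF3E was at 158 FPKM in sh-RAD51C against 162 FPKM in NC, EIF3F at 31.3 FPKM in sh-RAD51C against 33.2 FPKM in NC and EIF3H at 73.3 FPKM in sh-RAD51C against 72.4 FPKM in NC, with adjusted p of 0.429, 0.11 and 0.751. EIF3F was called lower without sh-RAD51C 1 (0.0231) and under quantile normalization (0.0425), and EIF3K without sh-RAD51C 1 (0.0427).

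EIF3C had the largest SE of the tested members. It was at 8.23, 21.6 and 9.25 FPKM in sh-RAD51C 1, 2 and 3, against 6.39, 7.66 and 13.4 FPKM in NC 1, 2 and 3, with sh-RAD51C 2 far above the rest and NC 3 above the other NC libraries (log2 fold change 0.41 ± 0.31 (SE), limma adjusted p = 0.295). Without sh-RAD51C 2 its log2 fold change was -0.00, and the median of the EIF3 genes was 0.06 in place of 0.10. EIF3CL, a near-identical copy at another place on the same chromosome, was at 3.47, 2.60 and 3.17 FPKM in the sh-RAD51C libraries and 4.33, 2.62 and 2.86 FPKM in the NC libraries. Since reads can be split between the copies, their sum was also taken: 11.7, 24.2 and 12.4 FPKM in the sh-RAD51C libraries and 10.7, 10.3 and 16.3 FPKM in the NC libraries. The summed groups overlapped too, with sh-RAD51C 2 and NC 3 high again.

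The EIF4 genes moved in both directions. Of 13 tested, 4 rose, 3 fell and 6 were not called, with a median of 0.08 (0.05 without sh-RAD51C 1). That is 30.8% higher and 23.1% lower, near the 23.2% and 26.2% of all genes. EIF4G1, the scaffold that joins the cap-binding protein to EIF3, was at 87.5, 97.8 and 95.9 FPKM in sh-RAD51C 1, 2 and 3, against 77.7, 73.3 and 78.5 FPKM in NC 1, 2 and 3 (log2 fold change 0.29 ± 0.047 (SE), limma adjusted p = 0.000425). Every sh-RAD51C library was above every NC library, and no exon of EIF4G1 (chr3:184314495-184335358) overlaps another annotated gene. EIF4A2, an RNA helicase of the cap complex, was at 79.9, 78.6 and 79.0 FPKM in the sh-RAD51C libraries and 70.7, 71.8 and 65.5 FPKM in the NC libraries (log2 fold change 0.19, limma adjusted p = 0.0023), its groups again apart. EIF4G2, a scaffold that lacks the part binding EIF4E and had the highest EIF4 level, was at 456, 476 and 483 FPKM in the sh-RAD51C libraries and 417, 421 and 434 FPKM in the NC libraries (log2 fold change 0.15, limma adjusted p = 0.00694). Both EIF4A2 and EIF4G2 host small nucleolar RNA genes and overlap a gene on the other strand. EIF4A1, the paralog of EIF4A2, was not among the deposited gene symbols. The EIF4 counts, medians and sums therefore do not include it.

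EIF4B, which stimulates the helicase, fell. It was at 102, 103 and 102 FPKM in sh-RAD51C 1, 2 and 3, against 125, 130.4 and 122 FPKM in NC 1, 2 and 3 (log2 fold change -0.29 ± 0.035 (SE), limma adjusted p = 4.84e-05). The sh-RAD51C libraries lay close together, below all NC libraries. Like EIF3L and EIF4E3, EIF4B shares exon positions with a gene on the other strand, and GENCODE lists 9 pseudogenes of it. Other members have pseudogenes too, among them EEF1A1 (39), EEF1B2, EEF1D and EEF1G (8 each) and EIF1 (7). EIF4H, which acts at the same step as EIF4B, averaged 244 ± 5.00 FPKM in sh-RAD51C and 229 ± 4.94 FPKM in NC; it was not called (log2 fold change 0.09, adjusted p = 0.0548), except without sh-RAD51C 1 (0.0330) and with median-ratio scaling (0.0416). EIF4E3, an atypical cap-binding protein with low levels, had the largest fall of all members, with 1.32, 1.2 and 1.34 FPKM in sh-RAD51C 1, 2 and 3, against 2.02, 2.45 and 2.25 FPKM in NC 1, 2 and 3. Its groups were far apart (log2 fold change -0.50 ± 0.071 (SE), limma adjusted p = 0.000164), on 479 to 550 inferred reads in sh-RAD51C and 786 to 992 in NC. EIF4E itself, the main cap-binding protein, was at 19.5 FPKM in sh-RAD51C against 18.4 FPKM in NC (log2 fold change 0.08, limma adjusted p = 0.266), with overlapping groups. The other EIF4 genes that were not called were EIF4A3, a helicase of the exon junction complex, EIF4E2, a cap-binding repressor, EIF4G3, the paralog of EIF4G1, and EIF4ENIF1, which shuttles EIF4E into the nucleus, with log2 fold changes of 0.08, -0.04, 0.03 and 0.00.

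The binding proteins that hold EIF4E away from EIF4G when MTOR is inactive changed in opposite directions. EIF4EBP1 was at 77.1, 75.8 and 67.1 FPKM in sh-RAD51C 1, 2 and 3, against 53.5, 53.7 and 60.5 FPKM in NC 1, 2 and 3 (log2 fold change 0.39 ± 0.060 (SE), limma adjusted p = 0.000314). EIF4EBP2 was at 18.4, 19.1 and 19.8 FPKM in sh-RAD51C 1, 2 and 3, against 26.8, 26.2 and 25.9 FPKM in NC 1, 2 and 3 (log2 fold change -0.44 ± 0.041 (SE), limma adjusted p = 6.17e-06). Neither pair of groups overlapped, and neither gene shares an exon with another annotated gene. EIF4EBP1 therefore made up 80.7%, 79.9% and 77.2% of the summed FPKM of both genes in sh-RAD51C 1, 2 and 3, against 66.7%, 67.2% and 70.1% in NC 1, 2 and 3. The means of 79.3% ± 1.82 in sh-RAD51C and 68.0% ± 1.82 in NC (SD, n = 3 each) are 11.3 percentage points apart, or 10.6 to 12.3 when any 1 library is left out. The share of EIF4G3 within EIF4G1 and EIF4G3 also differed without overlap, at 9.52% ± 0.431 in sh-RAD51C and 11.2% ± 0.0740 in NC. An exact permutation test of 3 against 3 libraries cannot go below p = 0.1, so no test is given for these shares. EIF4EBP3, the remaining binding protein, was below the filter with 4 to 10 inferred reads per library.

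**Figure D2:**
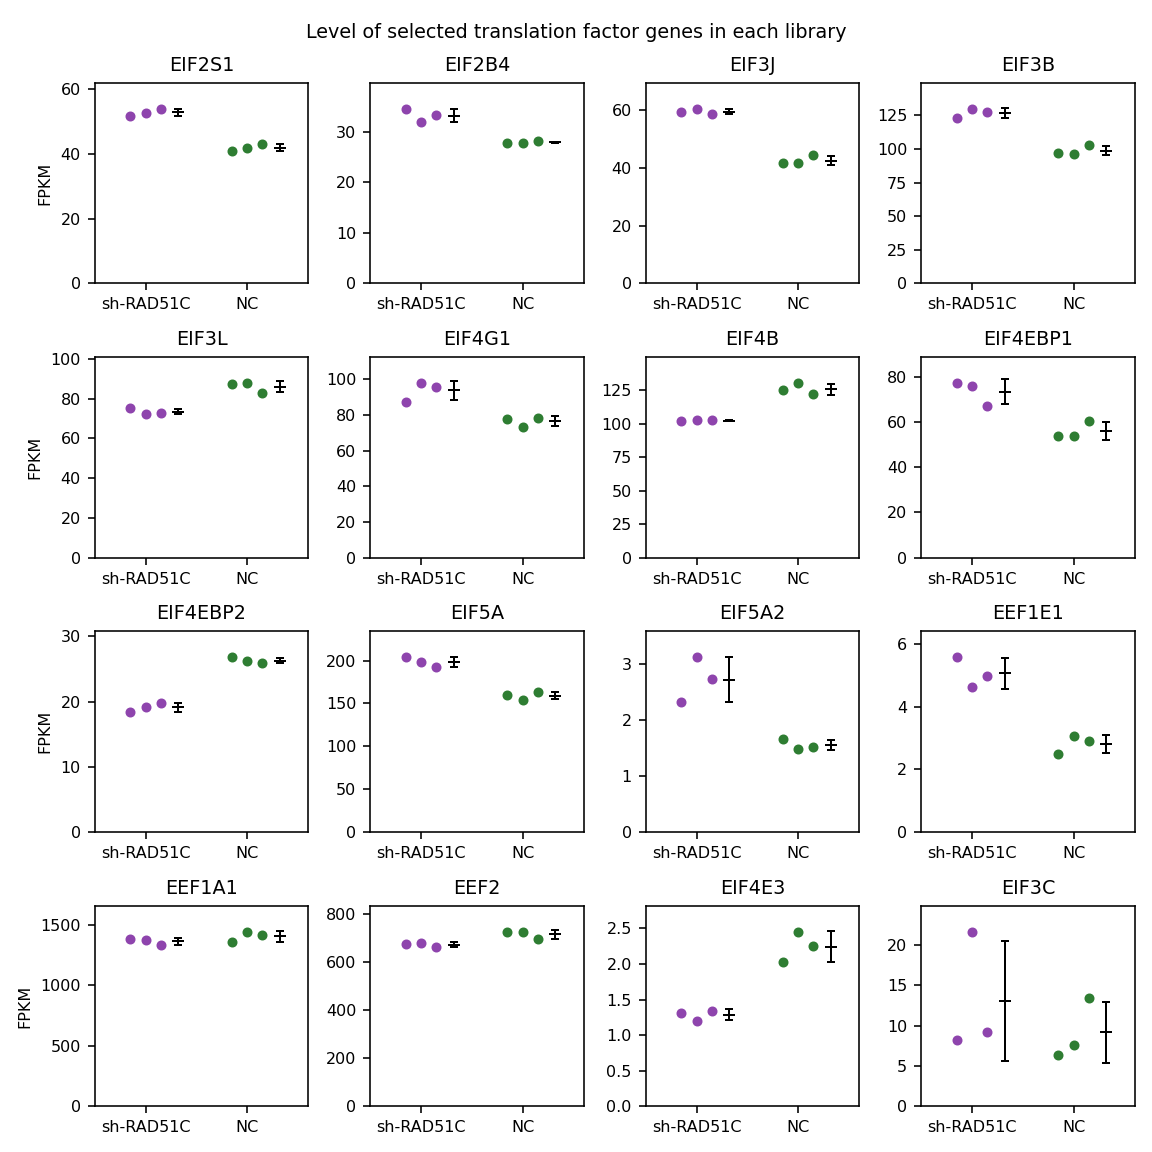
FPKM of 16 translation factor genes in each library, with sh-RAD51C on the left and NC on the right of each panel. Coloured points are libraries 1, 2 and 3 and the black marks are mean ± SD (n = 3); the groups overlap for EIF3C and EEF1A1 and are apart for the other 14, EEF2 by a narrow gap.

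Genes upstream of the cap complex were read for comparison. Of 16 tested genes of the MTOR and MNK inputs, 6 (37.5%) were called, 3 higher and 3 lower, beside 49.4% of all genes, with a median of -0.01. PDCD4, which blocks the EIF4A helicase, fell, averaging 5.80 ± 0.264 FPKM in sh-RAD51C and 9.38 ± 0.289 FPKM in NC (log2 fold change -0.61 ± 0.052 (SE), limma adjusted p = 3.67e-06). The kinases RPS6KA1, which lies downstream of ERK, and MKNK2, which phosphorylates EIF4E, also fell (13.5 FPKM in sh-RAD51C against 16.9 FPKM in NC, log2 fold change -0.31; 18.4 FPKM in sh-RAD51C against 23.0 FPKM in NC, -0.31; limma adjusted p = 0.000219 and 0.000511). RHEB, the GTPase that activates MTOR, rose, at 40.3 FPKM in sh-RAD51C against 34.2 FPKM in NC (log2 fold change 0.23, limma adjusted p = 0.00077). Of 5 poly(A) binding proteins and partners, 2 rose and 1 fell (60.0% called), with a median of 0.09. PABPC4 rose, averaging 74.0 ± 1.56 FPKM in sh-RAD51C and 54.9 ± 1.04 FPKM in NC (log2 fold change 0.42 ± 0.035 (SE), limma adjusted p = 2.63e-06), as did the main poly(A) binding protein PABPC1 (606 FPKM in sh-RAD51C against 530.5 FPKM in NC, log2 fold change 0.19, limma adjusted p = 0.00177). PAIP2, which pulls these proteins off the tail, fell (34.0 FPKM in sh-RAD51C against 41.1 FPKM in NC, log2 fold change -0.27, limma adjusted p = 0.000206). Its paralog PAIP2B was at 1.41 FPKM in sh-RAD51C against 1.68 FPKM in NC and was not called (adjusted p = 0.0883), except with no variance trend (0.0408) and on the inferred reads (0.0465). Exons of PDCD4, PABPC4, PABPC1 and PAIP2 overlap other annotated genes.

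Of the 7 factors for scanning, start codon choice and subunit joining, 4 rose, 0 fell and 3 were not called, with a median of 0.24. That is 57.1% called, beside 49.4% of all genes (23.2% higher). EIF5B, the GTPase that joins the ribosomal subunits, was at 30.8, 30.5 and 31.9 FPKM in sh-RAD51C 1, 2 and 3, against 23.8, 23.9 and 25.2 FPKM in NC 1, 2 and 3 (log2 fold change 0.34 ± 0.040 (SE), limma adjusted p = 3.67e-05). EIF6, which keeps free large subunits from joining too early and is needed to make them, was at 169, 159 and 155 FPKM in sh-RAD51C 1, 2 and 3, against 129, 127 and 134 FPKM in NC 1, 2 and 3 (log2 fold change 0.30 ± 0.041 (SE), limma adjusted p = 0.000114). EIF1AX, which keeps the scanning complex open, was at 40.2, 40.8 and 41.7 FPKM in the sh-RAD51C libraries and 33.4, 34.3 and 35.1 FPKM in the NC libraries (log2 fold change 0.25, limma adjusted p = 0.000204). EIF1AD, a protein that resembles EIF1A, was at 13.6, 13.8 and 13.5 FPKM in the sh-RAD51C libraries and 11.1, 11.2 and 11.9 FPKM in the NC libraries (log2 fold change 0.24, limma adjusted p = 0.00106). All 4 had every sh-RAD51C library above every NC library. Exons of EIF5B overlap REV1 and those of EIF1AD overlap BANF1, both on the other strand, and EIF6 overlaps an unnamed transcript. EIF1, which guards against wrong start codons, had the highest level here, with 318, 309 and 301 FPKM in the sh-RAD51C libraries and 290.2, 293 and 291 FPKM in the NC libraries. These groups did not overlap, but the difference was not called (log2 fold change 0.09, limma adjusted p = 0.0657), except without sh-RAD51C 3 (0.0369) and under quantile normalization (0.00371). EIF5, which triggers GTP hydrolysis by EIF2, was at 94.8 FPKM in sh-RAD51C against 90.4 FPKM in NC (adjusted p = 0.123), and was called higher without sh-RAD51C 1 (0.0484). EIF1B, the paralog of EIF1, was at 21.9 FPKM in sh-RAD51C against 22.3 FPKM in NC (adjusted p = 0.783) and made up 6.60% of the pair in sh-RAD51C and 7.09% in NC, with overlapping libraries.

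All 3 EIF5A genes were called higher, beside 23.2% of all genes. EIF5A, the only protein known to carry the modified residue hypusine together with its paralog EIF5A2, was at 204, 198 and 192 FPKM in sh-RAD51C 1, 2 and 3, against 160.2, 154 and 163 FPKM in NC 1, 2 and 3 (log2 fold change 0.31 ± 0.037 (SE), limma adjusted p = 4.45e-05). EIF5A2, the less abundant paralog, was at 2.32, 3.11 and 2.72 FPKM in sh-RAD51C 1, 2 and 3, against 1.65, 1.49 and 1.52 FPKM in NC 1, 2 and 3. Its sh-RAD51C libraries spread more widely but all lay above NC (1.75-fold by means; log2 fold change 0.54 ± 0.082 (SE), limma adjusted p = 0.000274). The counts behind it were 488, 639 and 573 inferred reads in sh-RAD51C 1, 2 and 3, against 330, 309 and 315 in NC 1, 2 and 3. EIF5A2 made up 1.36% ± 0.214 of the FPKM of the pair in sh-RAD51C and 0.966% ± 0.0509 in NC (SD, n = 3 each), without overlap. EIF5AL1, a near-identical copy of EIF5A, was at 3.24, 3.13 and 2.72 FPKM in the sh-RAD51C libraries and 2.71, 2.25 and 2.43 FPKM in the NC libraries (log2 fold change 0.22, limma adjusted p = 0.0308), and its call was lost without NC 2, NC 3, sh-RAD51C 1 or sh-RAD51C 2 (0.0730 to 0.125). Its reads cannot be told apart with certainty from those of EIF5A, whose exons also overlap GPS2 on the other strand; EIF5A2 has no such overlap.

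In the EEF1 complex, 1 of 5 tested genes was called, and it rose. Of all genes, 49.4% were called in either direction and 23.2% were called higher. EEF1E1, a small scaffold protein of the multi-tRNA-synthetase complex and part of the EEF1 family by sequence, was at 5.57, 4.61 and 4.99 FPKM in sh-RAD51C 1, 2 and 3, against 2.50, 3.05 and 2.89 FPKM in NC 1, 2 and 3. Every sh-RAD51C library was above every NC library, and the means of 5.06 ± 0.482 FPKM in sh-RAD51C and 2.81 ± 0.281 FPKM in NC (SD, n = 3 each) are a 1.8-fold difference, the highest fold among members called higher (log2 fold change 0.67 ± 0.077, SE; limma adjusted p = 3.47e-05). It rests on 254, 205 and 227 inferred reads in sh-RAD51C 1, 2 and 3, against 108, 137 and 130 in NC 1, 2 and 3, and exons of EEF1E1 (chr6:8073360-8102578) are shared with the read-through transcript EEF1E1-BLOC1S5. EEF1A1, the tRNA carrier and at rank 29 among all genes tested the most abundant member per length, was at 1384, 1369 and 1329 FPKM in sh-RAD51C 1, 2 and 3, against 1356, 1441 and 1411 FPKM in NC 1, 2 and 3. Its groups overlapped (log2 fold change -0.04 ± 0.044 (SE), limma adjusted p = 0.438). The exchange subunits were not called: EEF1B2 averaged 348 ± 17.3 FPKM in sh-RAD51C and 325 ± 10.5 FPKM in NC (adjusted p = 0.0765), EEF1D 62.8 ± 1.70 FPKM in sh-RAD51C and 60.1 ± 0.332 FPKM in NC (0.168), and EEF1G, a structural subunit, 973 ± 53.3 FPKM in sh-RAD51C and 1028 ± 34.0 FPKM in NC (0.2). EEF1B2 was called higher under quantile normalization (adjusted p = 0.0016), and EEF1G lower without sh-RAD51C 1 (0.0216). EEF1A2, the muscle and nerve form, was at 0.696, 0.760 and 0.772 FPKM in the sh-RAD51C libraries and 0.453, 0.661 and 0.721 FPKM in the NC libraries, below the filter.

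EEF2, the translocase, was at 675, 677 and 659.8 FPKM in sh-RAD51C 1, 2 and 3, against 721, 725 and 694 FPKM in NC 1, 2 and 3. The highest sh-RAD51C library was just below the lowest NC library, but the difference was not called (log2 fold change -0.09 ± 0.038 (SE), limma adjusted p = 0.0766), except without sh-RAD51C 1 (0.0410) and on the inferred reads (0.0467). Its kinase EEF2K, which inactivates it, was at 5.78 FPKM in sh-RAD51C against 5.44 FPKM in NC (adjusted p = 0.296). Of the 5 methyltransferases that modify EEF1A or EEF2, 3 rose and 0 fell (60.0% called, beside 49.4% of all genes, of which 23.2% were higher). EEF2KMT, which methylates EEF2, was at 5.76, 6.02 and 5.37 FPKM in sh-RAD51C 1, 2 and 3, against 3.38, 3.86 and 3.77 FPKM in NC 1, 2 and 3 (log2 fold change 0.52 ± 0.064 (SE), limma adjusted p = 5.25e-05). EEF1AKMT4 was at 3.07, 3.18 and 3.48 FPKM in sh-RAD51C 1, 2 and 3, against 2.45, 1.94 and 1.83 FPKM in NC 1, 2 and 3 (log2 fold change 0.47 ± 0.082 (SE), limma adjusted p = 0.000665). The groups of both genes were apart, and both share exons with a neighbour, EEF2KMT with ALG1 and EEF1AKMT4 with the read-through EEF1AKMT4-ECE2. EEF1AKMT3 was at 1.64, 1.79 and 1.61 FPKM in the sh-RAD51C libraries and 1.28, 1.4 and 1.34 FPKM in the NC libraries (log2 fold change 0.20, limma adjusted p = 0.0275), and its call was lost without NC 1, NC 3 or sh-RAD51C 2 (0.0649 to 0.0953). EEF1AKMT1 was at 5.48, 4.85 and 4.42 FPKM in the sh-RAD51C libraries and 4.64, 4.61 and 4.33 FPKM in the NC libraries (adjusted p = 0.279), and EEF1AKMT2 was at 3.92 FPKM in sh-RAD51C against 4.32 FPKM in NC (adjusted p = 0.228, or 0.0408 and lower without sh-RAD51C 2).

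Enzymes that build the special residues of these factors were looked at beside them. Of 8 tested, 3 rose and 1 fell (50.0% called, beside 49.4% of all genes), with a median of 0.17. DPH2, part of the enzyme that starts diphthamide on EEF2, averaged 15.7 ± 0.409 FPKM in sh-RAD51C and 9.62 ± 0.301 FPKM in NC (log2 fold change 0.65 ± 0.045 (SE), limma adjusted p = 7.80e-07), and its partner DPH1 5.76 ± 0.534 FPKM in sh-RAD51C and 4.52 ± 0.203 FPKM in NC (log2 fold change 0.29, limma adjusted p = 0.00381). Of the 2 steps of hypusine synthesis on EIF5A, DHPS, the first enzyme, fell, averaging 25.0 ± 1.55 FPKM in sh-RAD51C and 29.2 ± 0.293 FPKM in NC (log2 fold change -0.22, limma adjusted p = 0.0021), whereas DOHH, the second, rose, averaging 11.7 ± 0.290 FPKM in sh-RAD51C and 8.87 ± 0.533 FPKM in NC (log2 fold change 0.36, limma adjusted p = 0.000172). None of these 4 genes had overlapping groups. Exons of DPH2, DPH1 and DHPS overlap other annotated genes (AL357079.2, OVCA2 and WDR83 among them), and those of DOHH do not.

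Other lists cover factors of the same cycle under other names, and their counts stand beside 49.4% of all genes called and 23.2% called higher. Of 10 accessory initiation factors, 6 (60.0%) rose and 0 fell, with a median of 0.18, led by the recycling ATPase ABCE1, which averaged 47.3 ± 1.1 FPKM in sh-RAD51C and 31.9 ± 1.41 FPKM in NC (log2 fold change 0.55 ± 0.041 (SE), limma adjusted p = 1.29e-06), and by ABCF1, a partner of EIF2, at 49.4 FPKM in sh-RAD51C against 36.1 FPKM in NC (log2 fold change 0.44, limma adjusted p = 2.00e-06). BZW2, which mimics EIF5, and DENR, which helps recycling and reinitiation, had log2 fold changes of 0.28 and 0.19 (adjusted p = 8.26e-05 and 0.00145). Of 5 termination and rescue factors, 3 (60.0%) rose and 0 fell, with a median of 0.16: the release factors GSPT1 (0.33, adjusted p = 2.91e-05) and ETF1 (0.16, 0.00177) and the rescue factor PELO (0.30, 0.00159), whereas HBS1L, the partner of PELO, was not called (0.11, 0.0549), except in 4 of 16 refits (median-ratio scaling, no filter, quantile normalization and inferred reads, adjusted p from 0.0292 to 0.0313). Of 11 mitochondrial translation factors, 4 (36.4%) were called, all higher, with a median of 0.10. They were the elongation factors GFM1 (0.38, adjusted p = 0.000157) and TUFM (0.17, 0.00226), the GTPase GUF1 (0.25, 0.00157) and the release factor MTRF1L (0.22, 0.00517). Exons of ABCE1, BZW2, PELO, GFM1, TUFM, GUF1 and MTRF1L overlap other annotated genes, and those of ABCF1, DENR, GSPT1, ETF1 and HBS1L do not.

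**Figure D3:**
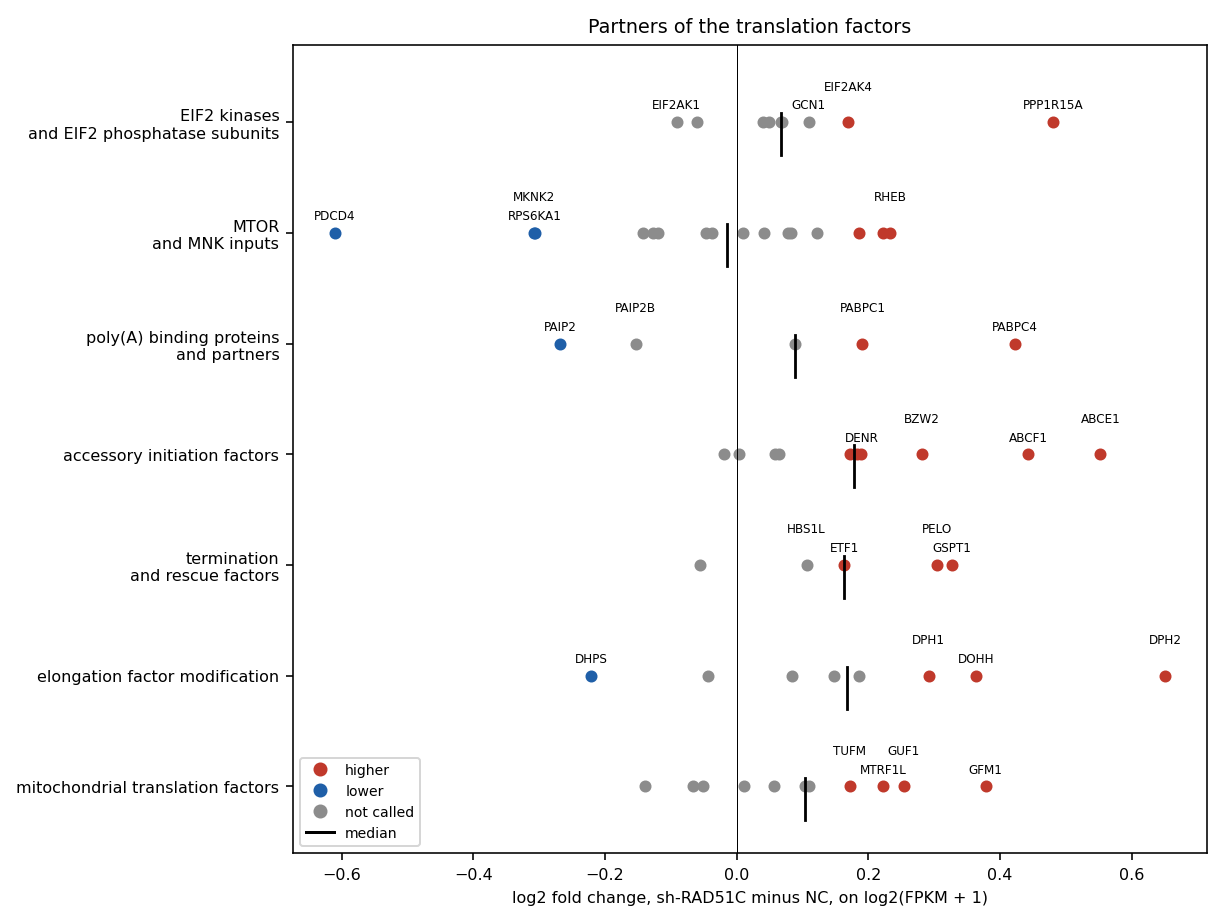
Log2 fold change, sh-RAD51C minus NC, on log2(FPKM + 1), of tested genes in 7 lists of translation factor partners, 1 list per line. Points are genes coloured by their limma call at an adjusted p under 0.05, bars are list medians, and up to 4 genes with the smallest p are named; called genes lie on both sides of 0 for MTOR and MNK inputs, poly(A) binding proteins and modification enzymes.

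Set side by side, the complexes had median log2 fold changes of 0.26 for EIF2 (3 genes, from -0.02 for EIF2S3 to 0.32 for EIF2S1), 0.18 for EIF2B (5 genes), 0.10 for EIF3 (14 genes, from -0.22 for EIF3L to 0.47 for EIF3J), 0.08 for EIF4 (13 genes, from -0.50 for EIF4E3 to 0.39 for EIF4EBP1) and 0.06 for EEF1 (5 genes, from -0.08 for EEF1G to 0.67 for EEF1E1). Summed levels were 232.8 ± 1.64 FPKM in sh-RAD51C and 208.5 ± 1.99 FPKM in NC for EIF2, and 97.9 ± 2.56 FPKM in sh-RAD51C and 85.3 ± 1.34 FPKM in NC for EIF2B. They were 1125 ± 22.2 FPKM in sh-RAD51C and 1061 ± 6.52 FPKM in NC for EIF3, and 1266 ± 13.4 FPKM in sh-RAD51C and 1183 ± 12.2 FPKM in NC for EIF4. The libraries of these 4 sums did not overlap (SD, n = 3 each). For EEF1 they were 2751 ± 94.5 FPKM in sh-RAD51C and 2819 ± 73.3 FPKM in NC, with overlap. The spread within EIF3 and EIF4 exceeded the distance between the medians of the complexes. The upper end for EEF1 came from EEF1E1, a scaffold protein of the multi-tRNA-synthetase complex. Next among the EEF1 genes was EEF1B2, with a log2 fold change of 0.10. No difference between complexes was tested.

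The transcript starts of the members fall into kinds that the choice by symbol did not use. RefSeq (GRCh38.p14) gave a start for 48 of the 60 tested members, and a member was counted as having a pyrimidine start where any listed start was a C followed by 4 bases that are each C or T. That split was made after the values were seen. The windows below hold 20 bases before and 20 bases from the start, 5′ to 3′, with the first 5 transcribed bases in capitals, and are shown so that both kinds of start can be read. The windows are picked examples and do not mirror the calls of either kind, which are counted further below. Not shown are EIF4EBP2 and EIF4E3, which fell with other starts, and EIF2A, EIF4A2 and EIF3D, which rose with pyrimidine starts. The first group has pyrimidine starts:
EIF4B: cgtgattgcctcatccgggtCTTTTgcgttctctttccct
EEF2: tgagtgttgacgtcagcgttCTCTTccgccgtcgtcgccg
EEF1A1: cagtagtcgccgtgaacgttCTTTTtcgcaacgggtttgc
EIF3F: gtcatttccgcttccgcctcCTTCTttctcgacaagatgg
EIF2S3: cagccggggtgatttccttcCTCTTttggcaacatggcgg
EIF3M: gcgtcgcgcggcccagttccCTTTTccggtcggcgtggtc
The second group has other starts, with 6 members that rose and EEF1G, which was not called:
EEF1E1: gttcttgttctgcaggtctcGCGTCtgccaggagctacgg
EIF5A2: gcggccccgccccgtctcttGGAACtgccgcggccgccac
EIF3J: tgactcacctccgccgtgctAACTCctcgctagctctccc
EIF3B: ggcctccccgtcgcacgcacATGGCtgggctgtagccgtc
EIF5B: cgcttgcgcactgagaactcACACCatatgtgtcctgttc
EIF2S1: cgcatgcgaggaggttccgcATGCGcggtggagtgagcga
EEF1G: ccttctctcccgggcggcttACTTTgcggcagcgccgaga
The windows of the first group are EIF4B at chr12:53006436-53006475 (plus strand), EEF2 at chr19:3985444-3985483 (minus strand), EEF1A1 at chr6:73521013-73521052 (minus strand), EIF3F at chr11:7987317-7987356 (plus strand), EIF2S3 at chrX:24054936-24054975 (plus strand), EIF3M at chr11:32583811-32583850 (plus strand). The windows of the second group are EEF1E1 at chr6:8102529-8102568 (minus strand), EIF5A2 at chr3:170908618-170908657 (minus strand), EIF3J at chr15:44537127-44537166 (plus strand), EIF3B at chr7:2354807-2354846 (plus strand), EIF5B at chr2:99337369-99337408 (plus strand), EIF2S1 at chr14:67360308-67360347 (plus strand), EEF1G at chr11:62573872-62573911 (minus strand).

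Of the 13 members with a pyrimidine start, 4 rose (EIF3D, EIF3M, EIF2A and EIF4A2), 1 fell (EIF4B) and 8 were not called, among them EEF1A1, EEF2 and EIF3K, with a median log2 fold change of -0.04. By the letter rule above, abundant members were found in both kinds. Of the 8 with the highest levels, EEF1A1, EEF2, EEF1B2 and EIF3K met it, and EEF1G, EIF4G2, EIF1 and EIF4H did not. Of the 35 members with other starts, 20 rose, 2 fell and 13 were not called, with a median of 0.18. Pyrimidine starts were found in 27.1% of the matched members, beside 7.70% of the 9031 matched genes tested. Over all genes tested, 131 of 695 with a pyrimidine start rose and 197 fell (median -0.04), and 1970 of 8336 with other starts rose and 2127 fell (median -0.00). Among 47 ribosomal protein genes with such a start, 2 rose and 10 fell. A list of 10 translation factors known for these starts gave 1 rise (EIF3A), 1 fall (EIF4B) and a median of -0.04. This comparison concerns RNA levels; how well the messages were translated was not measured, and whether the start has a part in the difference was not tested.

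**Figure D4:**
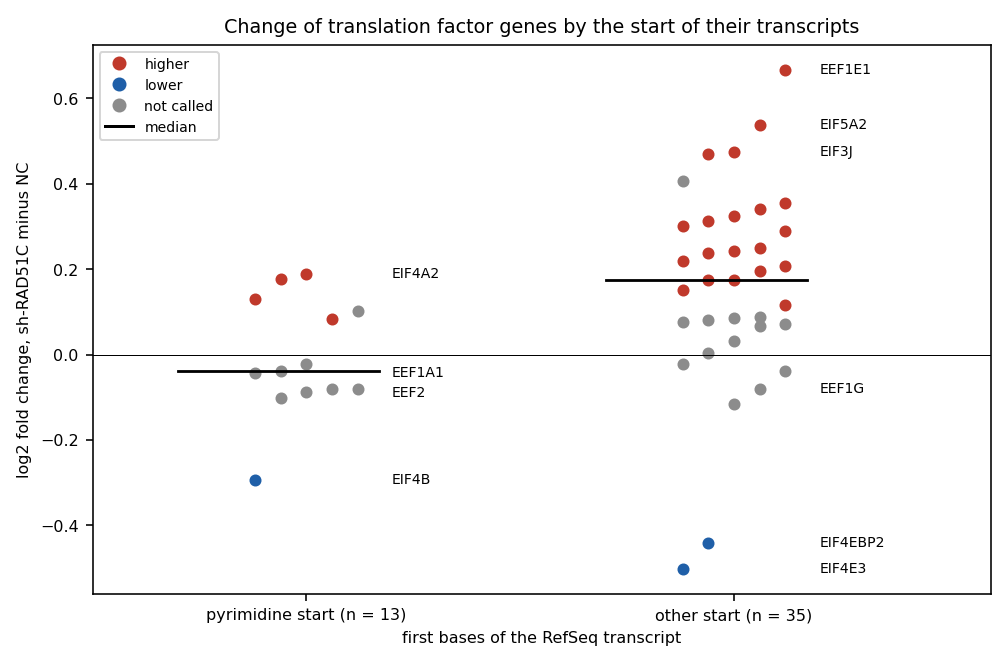
Log2 fold change, sh-RAD51C minus NC, of the 48 members with a RefSeq start, split into 13 with a pyrimidine start (left) and 35 with other starts (right). Points are genes coloured by their limma call at an adjusted p under 0.05, and lines are medians, which lie at -0.04 on the left and 0.18 on the right, with points of both kinds above and below 0.

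MYC, a transcription factor with many translation genes among its known targets, was looked at after its values were seen and was at 50.6, 51.9 and 48.7 FPKM in sh-RAD51C 1, 2 and 3, against 30.5, 30.3 and 32.3 FPKM in NC 1, 2 and 3 (log2 fold change 0.68, limma adjusted p = 2.34e-07). The letters CACGTG, the E-box to which MYC binds, read the same on both strands. They were found between 250 bases before and 50 bases after the start in 12 of the 48 matched members (25.0%), beside 12.7% of the matched genes tested. Of these 12, 4 rose, 1 fell and 7 were not called (median 0.08). Of the 36 without the letters, 20 rose, 2 fell and 14 were not called (median 0.14). Over all genes tested, 332 of 1145 with the letters rose and 248 fell (median 0.02). Among all 9031 matched genes tested, 2101 rose and 2324 fell (median -0.01). The letters stand 2 times in EIF4G1, EIF5A2 and EEF1AKMT4, which rose, and in EIF4E, which was not called, and once in EIF4B, which fell. The stretches with the E-box in capitals and 12 bases on each side are given for members of each kind:
EIF4G1: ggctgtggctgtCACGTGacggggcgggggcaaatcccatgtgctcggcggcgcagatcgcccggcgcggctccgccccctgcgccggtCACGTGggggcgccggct
EIF5A2: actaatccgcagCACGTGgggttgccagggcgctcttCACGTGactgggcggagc
EIF4E: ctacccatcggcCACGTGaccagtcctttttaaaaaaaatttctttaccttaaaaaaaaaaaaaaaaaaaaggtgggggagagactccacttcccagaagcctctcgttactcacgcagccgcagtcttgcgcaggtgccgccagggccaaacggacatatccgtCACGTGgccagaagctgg
EIF4B: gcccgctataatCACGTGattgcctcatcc
They are EIF4G1 at chr3:184314450-184314556 (plus strand), EIF5A2 at chr3:170908782-170908836 (minus strand), EIF4E at chr4:98929188-98929370 (minus strand) and EIF4B at chr12:53006422-53006451 (plus strand) on GRCh38.p14. The letters TGATGNAA, the element read by the stress factor ATF4, were found on either strand in 1 matched member, EIF4E3, beside 2.60% of the matched genes tested. A match is only a stretch of letters, and the part of MYC in these values was not tested.

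Gene length was read beside the members because sh-RAD51C 1 stood apart by it. Of 10 tested members under 1500 bases, 5 rose and 0 fell, with a median of 0.13. Of 36 between 1500 and 5000 bases, 20 rose and 2 fell, with a median of 0.16. Of 14 of 5000 bases or more, 5 rose and 2 fell, with a median of 0.06. Over all genes in the same classes the medians were -0.02, 0.01 and -0.03. Of all 1253 genes under 1500 bases, 286 rose and 339 fell. Of 5777 between 1500 and 5000 bases, 1561 rose and 1494 fell. Of 4122 of 5000 bases or more, 742 rose and 1089 fell. Without sh-RAD51C 1, the median over the 60 members was 0.11, and 8 members were called lower in place of 4. EEF1G and EIF3K, both under 1500 bases, were among those called lower only without it. The 30 called higher were as many as with all libraries but not all the same genes. EIF2B5 and EIF5AL1 dropped out, and EIF4H and EIF5 came in.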

How the data were processed

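Per the labels' protocols, total RNA of 5637 cells was extracted with TRIzol, and libraries were built with the VAHTS Universal V6 kit. The deposited values are the authors' FPKM per gene symbol. The genome build was hg38 per the submitters' processing notes, which also list R 3.2.0 and DESeq2 but not what each did. The sources used here name no aligner, counter, strand setting or annotation. All 6 value columns were matched to libraries by title, and 0 were left unused.

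FPKM values were whole multiples of what 1 read is worth, so reads were inferred. RefSeq gene lengths served only to find the total of each library, and 653 to 672 genes per library gave whole reads with them. The length of each gene was then taken as the smallest that made its reads whole in all 6 libraries. Reads were whole within 0.001 for 100.0% of the genes kept, which follows from that choice of length. The length classes use these inferred lengths. The filter kept 11152 genes whose mean FPKM was at least 1. Their log2(FPKM + 1) values were compared, sh-RAD51C against NC, with limma 3.58.1 (R 4.3.3, trended empirical Bayes, no covariates), and p-values were adjusted over all of them by Benjamini-Hochberg. The pseudocount of 1 understates changes of low genes. Calls needed an adjusted p below 0.05. On simulated libraries of 11152 genes the fit recovered 4% of 50 genes changed 1.1-fold, 66% changed 1.2-fold and 98% changed 1.5-fold. It called 8 of 10952 unchanged genes. Few genes were changed in the simulation, at a fixed spread, whereas 49.4% of all genes were called here. These shares therefore cannot be carried over to the real libraries. Libraries of a group differed beyond sampling noise (their chi-square was 3.69 to 14.3 times its degrees of freedom), so none was a repeat deposit.

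The members, gene lists and alternatives were chosen with earlier results of these data known, and no list was tested as a set. Values in every library are given for up to 4 called members per list with the largest change and no overlap, and for the member with the highest level. Up to 4 partner genes per list were named by smallest p. MYC was named after its values were seen. Positions of genes and exon overlaps are from GENCODE on GRCh38, and start windows are from RefSeq (GRCh38.p14). Alternatives covered the pseudocount, filter, 3 scalings, variance model, a replicate block, thresholds and each library left out. Those added after seeing the data were limma's voom on the inferred reads, omission of members with overlapping exons, and the paralog shares with each library left out. Python 3.11.15, numpy 2.4.6 and pandas 2.3.3 were used.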

Additional observations from a re-analysis of the deposited data

How the results depend on the processing

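Of the 34 called members, 27 kept their call and direction in each of the 16 refits they entered (the lowest were not in that at 5 FPKM) and 7 lost it in at least 1 (EIF2B2, EIF2B3, EIF2B5, EIF3A, EIF3D, EIF5AL1 and EEF1AKMT3), with 0 changes of direction. Of the 26 not called, 9 gained a call in at least 1. EEF1E1 and EIF5A2, with 108 to 639 inferred reads per library, kept their calls in all 15 refits they entered (largest adjusted p 0.00335 and 0.00963). The cause of the changes listed here was not tested.

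With a mean of at least 5 FPKM, 1859 genes were called lower (2088 higher), and the medians were 0.011 over all genes, 0.12 for EIF3 and 0.0086 for EEF1. Quantile normalization gave 2867 genes higher and 2687 lower, and medians of 0.010 over all genes, 0.22 for EIF2, 0.072 for EIF3 and 0.019 for EEF1. With no filter the EIF4 median was 0.053. A required change of at least 0.2 left 22 members called, 18 of them higher, and an adjusted p under 0.01 left 27. Of all 11152 genes, 4113 (1843 higher) and 3921 (1869 higher) stayed called, beside 5511 in the main fit. Members without exon overlap had 9 calls (39.1% of those tested, beside 49.4% of all genes), 8 higher and 1 lower, with a median of 0.083. On the inferred reads, 5665 genes and 32 members were called.

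Leaving out 1 library gave 28 to 38 members called, 24 to 30 higher and 4 to 8 lower. Over all genes it gave 4522 to 5464 called, 2129 to 2609 higher and 2393 to 2855 lower. The medians were 0.057 to 0.12 for EIF3 and 0.045 to 0.086 for EIF4. Among members, directions turned for 7 genes, none of them called. Under quantile normalization EIF3CL was 0.015 and EIF3H -0.034, and with upper quartile scaling EIF4ENIF1 was -0.0039. With each library left out, the log2 fold change ran from -0.077 to 0.037 for EIF1B, -0.037 to 0.00018 for EIF2S3, -0.00039 to 0.69 for EIF3C, -0.16 to 0.12 for EIF3CL, -0.014 to 0.049 for EIF3H, -0.051 to 0.047 for EIF4ENIF1 and -0.020 to 0.083 for EIF4G3.

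The labels state no pairing of libraries by replicate number. Deviations of same-numbered libraries correlated at 0.19, 0.026 and 0.091, the first being the highest of all pairs. NC 1 and NC 2 correlated best with the sh-RAD51C library of the same number, and NC 3 with sh-RAD51C 2 (0.11). With 3 libraries per group, these correlations cannot show whether the libraries were paired. With the replicate block, 5569 genes and 32 members were called.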
